A study of Mus musculus with 16 samples.

Results

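The oligodendrocyte lineage genes described here are Pdgfra, Olig1, Olig2, Sox10, Cspg4, Mbp and Cnp, measured in GABAergic cells sorted from the newborn mouse brain. They were taken by name, with the older symbol Cnp1 for Cnp, and every probe that carried one of these names was used. That gave 7 genes and 14 probes of the 41173 probes on the array. All 14 passed the filter on dim probes, which 39226 probes passed in all. Expression was measured on 16 two-colour Agilent arrays at postnatal day 1. Cells carrying GAD67-eGFP, a reporter of the GABA-synthesising enzyme encoded by Gad1, were sorted by flow cytometry from C57Bl/6 background mice and labelled with Cy5. There were 4 arrays of cells from whole brain and 3 each of cells from olfactory bulb, cortex, striatum and cerebellum. All 5 groups thus carry the reporter, none was treated, and every array had the same common reference, amplified Cy3-labelled cDNA of total brain from 4 mice of matching age. The labels name 4 mice for the whole-brain cells and 6 for the dissected regions, and call the arrays biological replicates without saying which animals each one holds.

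Oligodendrocytes wrap axons in myelin and arise from dividing precursors. In the forebrain, the first precursors come from ventral zones that also give rise to GABAergic neurons, and their progenitors can carry OLIG1 and OLIG2, paired basic helix-loop-helix transcription factors. OLIG2 commits cells to the lineage, the HMG-box factor SOX10 drives it towards myelin genes, PDGFRA is the receptor through which platelet-derived growth factor keeps precursors dividing, and CSPG4 (NG2) is a surface proteoglycan of precursors and of pericytes. MBP and CNP are myelin proteins of the later stages, and at postnatal day 1 myelination of the mouse brain has scarcely begun.

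At their brightest probes Pdgfra, Olig1, Olig2, Sox10 and Cnp were lower in the sorted cells of every group, whereas Cspg4 was not. The stretches from which transcripts start are shown for Pdgfra, Olig2, Cnp and Cspg4, the 4 of the 7 genes with a window at hand. They come from RefSeq on GRCm38.p6, matched by symbol, each 300 bases long, 5' to 3' on the plus strand, at chr5:75152001-75152300 for Pdgfra, chr16:91225300-91225599 for Olig2, chr11:100574689-100574988 for Cnp and chr9:56864854-56865153 for Cspg4. Capitals mark matches to 4 motifs searched on both strands: CAGCTG and CATATG, forms of the E-box that basic helix-loop-helix factors bind, and AACAAT and ACAAAG, cores bound by HMG-box factors of the SOX family.
Pdgfra: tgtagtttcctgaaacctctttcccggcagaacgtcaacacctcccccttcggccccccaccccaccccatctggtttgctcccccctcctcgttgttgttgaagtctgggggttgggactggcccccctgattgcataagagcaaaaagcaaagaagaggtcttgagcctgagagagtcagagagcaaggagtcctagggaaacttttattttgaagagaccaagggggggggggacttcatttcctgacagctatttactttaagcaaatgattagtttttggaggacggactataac
Olig2: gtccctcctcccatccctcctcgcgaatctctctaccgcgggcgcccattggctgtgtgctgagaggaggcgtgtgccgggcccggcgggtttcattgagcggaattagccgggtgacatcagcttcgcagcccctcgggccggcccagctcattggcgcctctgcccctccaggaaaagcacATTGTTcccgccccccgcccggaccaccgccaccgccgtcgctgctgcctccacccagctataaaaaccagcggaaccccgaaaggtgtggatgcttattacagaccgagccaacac
Cnp: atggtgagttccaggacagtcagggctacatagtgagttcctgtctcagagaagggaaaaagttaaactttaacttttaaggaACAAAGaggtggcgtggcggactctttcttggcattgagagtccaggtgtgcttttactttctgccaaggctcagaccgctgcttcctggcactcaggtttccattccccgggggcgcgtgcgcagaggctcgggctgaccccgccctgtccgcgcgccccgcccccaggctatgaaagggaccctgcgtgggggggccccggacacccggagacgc
Cspg4: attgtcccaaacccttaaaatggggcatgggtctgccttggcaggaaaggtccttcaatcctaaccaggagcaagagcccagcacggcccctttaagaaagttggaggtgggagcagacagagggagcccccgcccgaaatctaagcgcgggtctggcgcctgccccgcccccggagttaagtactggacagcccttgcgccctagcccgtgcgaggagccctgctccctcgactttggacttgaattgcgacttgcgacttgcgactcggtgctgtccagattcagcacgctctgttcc
Olig2 held 1 match to AACAAT, on the other strand, at base 184 of the window, and Cnp held 1 match to ACAAAG at base 84, with no overlap between motifs. Pdgfra and Cspg4 held none of the 4. Among 32851 promoter windows of the same length, 10.7% held AACAAT, 18.7% ACAAAG, 16.3% CAGCTG, 3.91% CATATG and 41.5% any of the 4, so these matches are common ones. GC content was 51.0% for Pdgfra, 65.0% for Olig2, 59.7% for Cnp and 60.0% for Cspg4, against a median of 52.7% over all windows. Olig1 and Olig2 are neighbours on chromosome 16, with 0 protein-coding genes between them in RefSeq.

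The values are log2 ratios of sorted cells over the reference, so that a negative value means less signal in the sorted cells, and a probe is called where limma's adjusted p, over all 39226 probes, is under 0.05. The test leaves out the spread of the reference, which is the same RNA on every array. Median spot intensity per array was between 150.9 and 717.5 units for Cy5 and between 92 and 254 for Cy3. Every member probe stood well above background on all 16 arrays in Cy5, and in Cy3 too except Cspg4 A_52_P539873 (14 arrays) and Mbp A_51_P349205 (15 arrays), and no member spot was saturated. Arrays of 1 group correlated across probes at r from 0.934 to 0.992, whereas whole-brain arrays correlated with regional ones at 0.604 to 0.735. The 4 whole-brain arrays were scanned in another session than the 12 regional arrays, so whole brain and scan session cannot be told apart. The sort marker itself went against the label of the whole-brain arrays as GABAergic cells. Gad1 had a mean log2 ratio of -1.51 in whole brain and 0.79 to 0.91 in the 4 regions, with both Gad1 probes below 0 in whole brain. Of 7 GABAergic markers in all, 5 were called higher in whole brain and 2 lower. The regions had 7 of 7 called higher, or 6 of 7 in cerebellum with Dlx2 not called at -0.11. Across all genes, by 1 probe a gene, 36.1% to 45.2% were called higher in the 5 groups and 31.2% to 34.5% lower. The regional means and differences below hold no whole-brain value. The shared estimate of spread, the filter on dim probes and the choice of the brightest probe did use all 16 arrays. F tests of members that change with the 12 regional arrays alone are named. The pairs of regions were not fitted on those arrays alone without a block.

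In the sorted cells the transcription factors Olig1, Olig2 and Sox10, the receptor Pdgfra and the myelin gene Cnp were lower than in total brain in all 5 groups, by their brightest probes. Mbp was lower in the 4 regions and level with total brain in whole brain, and Cspg4 was higher in all 5 groups. Of the 14 probes, 9 were called lower and 4 higher in whole brain, where 38.1% of all probes were called lower and 41.2% higher. In olfactory bulb 10 were lower and 4 higher, against 32.8% and 34.6% of all probes. In cortex 10 were lower and 2 higher (33.6% and 34.8% of all probes), in striatum 9 and 1 (33.3% and 34.1%), and in cerebellum 9 and 3 (36.4% and 38.8%). Probes lower by at least 2-fold numbered 6 in whole brain, 7 for olfactory bulb, 7 for cortex, 3 for striatum and 5 for cerebellum, against 14.7%, 8.16%, 7.97%, 6.21% and 8.95% of all probes. The 14 probes had a median log2 ratio of -0.70 for whole brain, -1.02 for olfactory bulb, -1.0 for cortex, -0.56 for striatum and -0.32 for cerebellum, beside 0.04, 0.01, 0.01, 0.01 and 0.03 for all probes. The 5 groups share 1 reference, so a high level of a gene in that RNA lowers all of them together. In sorted populations, fewer cells of a type and less RNA per cell cannot be told apart.

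**Figure D1:**
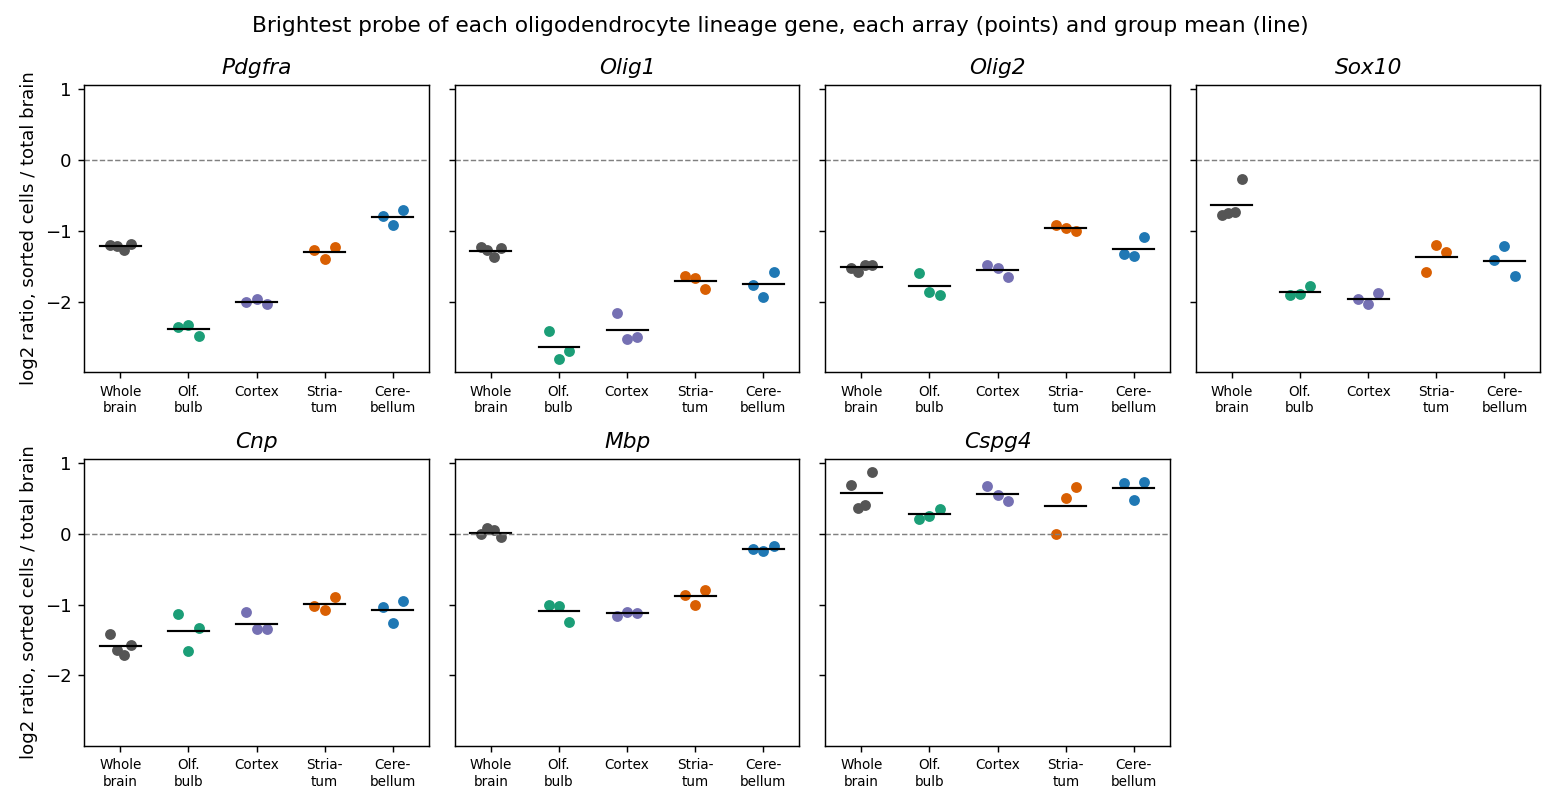
Log2 ratio of sorted cells over total brain for the brightest probe of each gene, on the y axis, by group on the x axis; points are single arrays, lines are group means, and the dashed line is equality. The whole-brain group has 4 arrays and each region 3; Olig1 in olfactory bulb has the lowest mean, at -2.64, and Cspg4 has the only means above 0 apart from Mbp in whole brain, at 0.01 and not called.

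Pdgfra, the receptor of the precursor mitogen, was among the most depleted transcripts of olfactory bulb and cortex cells and much less so in cerebellum. Its brightest probe, A_52_P264283, read -2.36, -2.33 and -2.48 on the 3 olfactory bulb arrays and -2.0, -1.96 and -2.04 on those of cortex. It read -1.27, -1.40 and -1.23 in striatum and -0.79, -0.92 and -0.70 in cerebellum. No array of 1 region overlapped with an array of another. Whole brain, at -1.20, -1.22, -1.27 and -1.18, overlapped with striatum and lay between cortex and cerebellum. The means ± SD were -2.39 ± 0.081 in olfactory bulb, 5.24-fold below the reference, -2.0 ± 0.039 in cortex, -1.30 ± 0.090 in striatum and -0.80 ± 0.108 in cerebellum (n = 3 each), or 1.74-fold below. Only 0.607% of all tested probes had a lower mean in olfactory bulb and 1.14% in cortex, against 13.1% in cerebellum. All 5 groups were called lower, with adjusted p from 4.06e-17 in olfactory bulb to 2.46e-10 in cerebellum. The regions differed by the moderated F test (adjusted p = 1.05e-10), over a range of 1.59 between olfactory bulb and cerebellum. Each of the 6 pairs of regions was called, the closest being olfactory bulb and cortex, with a difference of -0.39 (95% interval -0.57 to -0.22, adjusted p = 0.00383). With the sorted channel alone, that difference was -0.21 (adjusted p = 0.331) and the one between striatum and cerebellum -0.27 (adjusted p = 0.209), so neither passed there, whereas the other 4 pairs did. Olfactory bulb less cortex was also not called with median centring (-0.20, adjusted p = 0.251), and as the mean of both probes neither it (-0.22, adjusted p = 0.0686) nor striatum less cerebellum (-0.17, adjusted p = 0.0969) was called.

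The second Pdgfra probe, A_51_P345649, gave the same split between olfactory bulb and cortex on 1 side and striatum and cerebellum on the other. It read -1.41, -1.78 and -1.75 in olfactory bulb and -1.55, -1.48 and -1.73 in cortex, but -0.13, -0.27 and -0.41 in striatum and -0.38, -0.34 and -0.54 in cerebellum. The first pair of regions overlapped with each other, the second pair overlapped with each other, and the 2 pairs lay far apart. Differences across the pairs ran from -1.17 to -1.37 and were called, while olfactory bulb less cortex was -0.05 (95% interval -0.29 to 0.18) and striatum less cerebellum 0.15 (-0.09 to 0.39). All 5 groups were called lower, but the striatal mean of -0.27 turned to 0.07 with median centring and lost its call without striatum replicate 3 (-0.20, adjusted p = 0.0845). On the same arrays the first probe less the second was -0.75 for olfactory bulb, -0.41 for cortex, -1.03 for striatum and -0.38 for cerebellum, but 0.40 for whole brain, where the second probe averaged -1.62. Meningeal fibroblasts also carry this receptor. Across all genes, by 1 probe a gene, 31.2% to 34.5% were called lower in the 5 groups and 36.1% to 45.2% higher. Of 8 fibroblast and meningeal markers, 6 were called lower for olfactory bulb and for cortex, 7 for striatum and for cerebellum and 5 in whole brain, and none higher. Their mean log2 ratio per array ran from -1.59 to -1.48 in olfactory bulb, -1.90 to -1.78 in cortex, -1.63 to -1.42 in striatum and -1.60 to -1.47 in cerebellum, with Igf2 at -5.22 in whole brain and Ptgds at -4.30 in cortex. Their part in the Pdgfra values was not tested.

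Olig1 had the lowest mean of the 7 genes, by brightest probe, in each of the 4 regions; in whole brain Cnp (-1.58) and Olig2 (-1.51) were lower. Its single probe, A_52_P603038, read -2.41, -2.81 and -2.70 for olfactory bulb, -2.15, -2.53 and -2.50 for cortex, -1.64, -1.66 and -1.83 for striatum and -1.77, -1.93 and -1.57 for cerebellum. Olfactory bulb and cortex overlapped, striatum and cerebellum overlapped, and every array of the first 2 regions lay below every array of the others. Whole brain was highest, at -1.23, -1.28, -1.37 and -1.24. The olfactory bulb mean of -2.64 ± 0.204 (SD, n = 3) was 6.23-fold below the reference (adjusted p = 1.27e-15), with 0.347% of all probes lower. The whole-brain mean of -1.28 ± 0.063 (n = 4) was 2.43-fold below it (adjusted p = 2.15e-12). Cy5 signal of the Olig1 probe was low in 2 regions, at 101.5 to 119.0 units in olfactory bulb and 93.7 to 123.9 in cortex. Local background on those arrays was 57 to 62 units. The regions differed by the F test (adjusted p = 5.13e-06). Olfactory bulb less striatum was -0.93 and less cerebellum -0.88, and cortex less the same regions was -0.68 and -0.64, with adjusted p from 1.26e-05 to 0.000927. Olfactory bulb less cortex, at -0.24 (95% interval -0.49 to 0.01), and striatum less cerebellum, at 0.05 (-0.20 to 0.30), were not called, and the latter turned to -0.44 with scale normalization between arrays. All 4 called differences remained called in the sorted channel alone.

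Olig2, the neighbour of Olig1 on chromosome 16, was lower in all 5 groups by both of its probes. The brighter one, A_52_P223626, read -1.59, -1.86 and -1.90 in olfactory bulb and -1.49, -1.52 and -1.65 in cortex. It read -0.92, -0.96 and -1.01 in striatum and -1.32, -1.36 and -1.09 in cerebellum. Here striatum stood alone at the top and did not overlap with any other region, cerebellum was between, and olfactory bulb and cortex overlapped. Whole brain read -1.52, -1.58, -1.48 and -1.48, overlapping with cortex. The means ran from -1.78 ± 0.168 in olfactory bulb, 3.44-fold below the reference, to -0.96 ± 0.042 in striatum, 1.95-fold below (n = 3 each, adjusted p = 1.57e-14 and 2.37e-10). The F test among regions gave an adjusted p of 8.97e-06, and 5 of 6 pairs were called, all except olfactory bulb and cortex (-0.23, 95% interval -0.43 to -0.03, adjusted p = 0.118). Striatum less cerebellum was 0.29 (adjusted p = 0.0228), lost its call without any 1 of 4 arrays of those regions (striatum replicates 1 and 2, cerebellum replicates 1 and 2) and was -0.0025 with scale normalization. Cortex less cerebellum, -0.30 (adjusted p = 0.0278), lost its call without cortex replicate 2 or 3 or cerebellum replicate 3, at -0.32, -0.25 and -0.21. In the sorted channel alone, cerebellum was no longer called apart from olfactory bulb (-0.19, adjusted p = 0.267) or from cortex (-0.20, adjusted p = 0.313). With median centring both of these differences lost their calls too (-0.25, adjusted p = 0.112, and -0.22, adjusted p = 0.239). Olfactory bulb less cortex was called without olfactory bulb replicate 1 (-0.33, adjusted p = 0.0433).

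The dimmer Olig2 probe, A_51_P367451, averaged -0.63 ± 0.245 in whole brain (n = 4), -0.96 ± 0.293 for olfactory bulb, -0.87 ± 0.068 for cortex, -0.86 ± 0.128 for striatum and -1.04 ± 0.363 for cerebellum (n = 3 each). All 5 were called lower, and all 4 regions overlapped. Its F test among regions was not called (adjusted p = 0.716), with differences between regions from -0.10 to 0.18 and 95% intervals reaching from -0.45 to 0.53. The probes thus gave the same direction against total brain and a different regional picture. Its signal in the reference ran from 80.3 to 226.8 units, against 299.2 to 859.2 for the brighter probe. Across all genes, by 1 probe a gene, 36.1% to 45.2% were called higher in the 5 groups and 31.2% to 34.5% lower. Of 7 genes of ventral progenitors, which can share Olig expression, 4 were called higher and 3 lower for olfactory bulb, 3 and 2 for cortex, 4 and 2 for striatum and 2 and 4 for cerebellum. Among them Gsx1, a homeobox gene of the ganglionic eminences, was -2.19 for olfactory bulb, -2.01 for cortex, -0.63 for striatum and -0.64 for cerebellum, and Nkx2-1, of the medial eminence, was -1.87, -0.01 (0.29 with median centring), 1.0 and -1.36. The part of such cells in the Olig1 and Olig2 values was not tested.

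Sox10 was lower in all 5 groups by its brighter probe, whereas the other probe was called lower in whole brain alone. The brighter probe, A_51_P346704, read -1.91, -1.90 and -1.78 in olfactory bulb and -1.97, -2.03 and -1.88 in cortex, ranges that overlapped. Striatum, at -1.59, -1.20 and -1.31, and cerebellum, at -1.42, -1.22 and -1.63, also overlapped and lay above them. Whole brain read -0.77, -0.75, -0.73 and -0.28, above every region. Cortex, at -1.96 ± 0.078, was 3.89-fold below the reference (n = 3, adjusted p = 4.35e-13), with 1.25% of all probes lower. Whole brain was 1.55-fold below it, at -0.63 ± 0.238 (n = 4, adjusted p = 5.28e-07), and with median centring at -0.09 it was no longer called. The F test among regions had an adjusted p of 0.00127. Cortex less striatum was -0.59 and less cerebellum -0.54, and olfactory bulb less the same regions was -0.50 and -0.44, with adjusted p from 0.00515 to 0.0124. The olfactory bulb calls were lost without striatum replicate 2 (-0.42, adjusted p = 0.0554) and without cerebellum replicate 2 (-0.34, adjusted p = 0.0688). With median centring olfactory bulb less cerebellum was -0.14 and not called (adjusted p = 0.40), and in the sorted channel alone -0.21 (adjusted p = 0.173). Olfactory bulb less striatum lost its call with median centring (-0.35, adjusted p = 0.0509) and with scale normalization (-0.38, adjusted p = 0.0651).

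The other Sox10 probe, A_52_P192625, read 0.49, 0.51 and -0.09 in olfactory bulb and 0.31, 0.15 and 0.30 in cortex, both called higher (means 0.30 and 0.25, adjusted p = 0.00786 and 0.0224). The olfactory bulb call was lost without its replicate 1 or 2 (0.21 and 0.20), and the cortex call without its replicate 1 or 3 (0.23 each). In striatum it averaged 0.02 ± 0.129 and in cerebellum 0.07 ± 0.190 (n = 3 each), neither called, though both were with median centring (0.37 and 0.29). Its F test among regions was not called (adjusted p = 0.18), but was without olfactory bulb replicate 3 (range 0.48, adjusted p = 0.00646). In whole brain it read -0.68, -0.78, -0.76 and -0.84, close to the first probe. On the same arrays the first probe less the second was -2.16 for olfactory bulb, -2.21 for cortex, -1.38 for striatum and -1.49 for cerebellum, but 0.13 for whole brain. The probes are annotated to different accessions of the gene, and averaging them left the regional F test uncalled (range 0.18, adjusted p = 0.20). In whole brain both probes were called lower, while the low regional ratios and the differences between regions were those of the brighter probe.

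**Figure D2:**
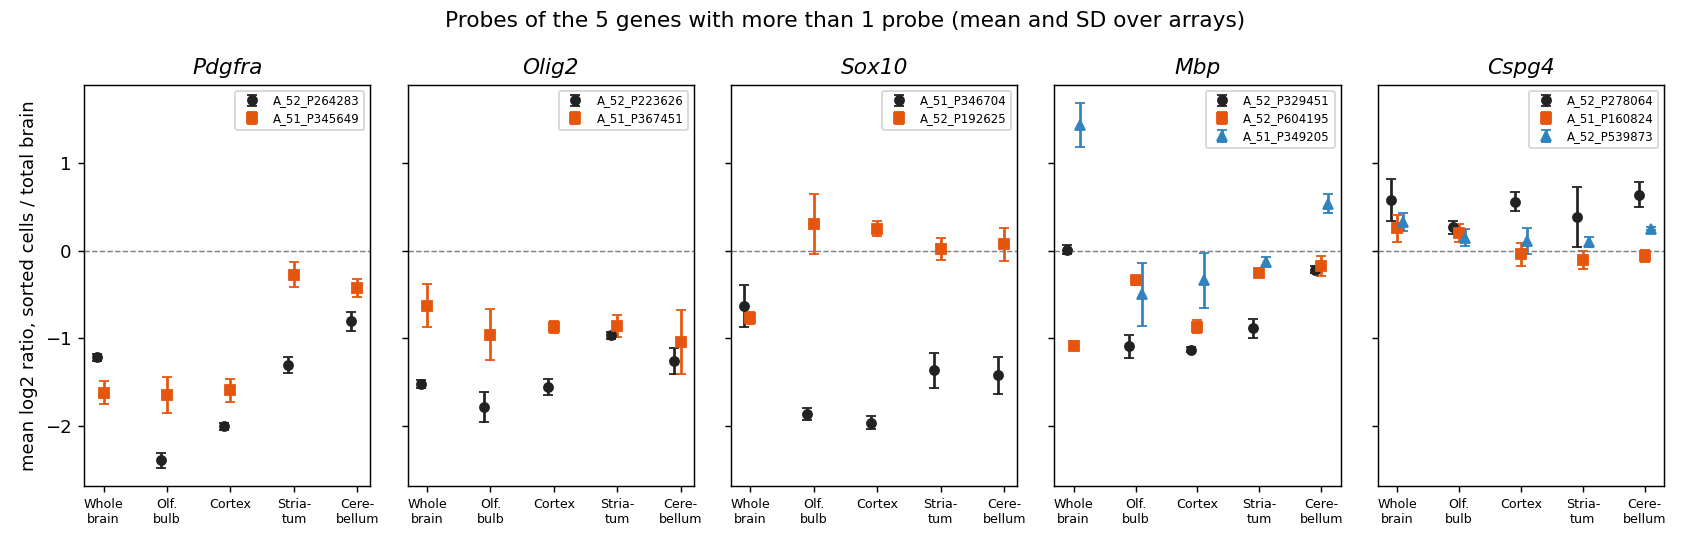
Mean log2 ratio over the reference (y axis) of each probe of the 5 genes with more than 1 probe, by group (x axis); bars are SD over 4 whole-brain or 3 regional arrays. Sox10 A_51_P346704 less A_52_P192625 is -2.16 for olfactory bulb and 0.13 for whole brain, whereas both Olig2 probes are below 0 in all groups; Pdgfra A_51_P345649 in striatum is below 0 with loess and at 0.07 with median centring.

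Cspg4 was the exception among the precursor genes, with no probe called lower in any group. Its brightest probe, A_52_P278064, read 0.21, 0.25 and 0.35 for olfactory bulb, 0.67, 0.55 and 0.45 for cortex, 0.00, 0.50 and 0.65 for striatum and 0.71, 0.47 and 0.73 for cerebellum. Whole brain read 0.68, 0.36, 0.40 and 0.87, and every region overlapped with at least 1 other. The highest mean was that of cerebellum, 0.64 ± 0.142, 1.56-fold above the reference (n = 3, adjusted p = 1.73e-05), and the lowest that of olfactory bulb, 0.27 ± 0.073, 1.21-fold above (n = 3, adjusted p = 0.0293). The olfactory bulb call was lost without any 1 of its 3 arrays (0.30, 0.28 and 0.23), and the striatal call (0.38, adjusted p = 0.0032) was lost without striatum replicate 3 (0.25, adjusted p = 0.0844). With all 16 arrays and no block, no pair of groups was called for this probe, and the F test among regions gave an adjusted p of 0.129. The largest regional difference, olfactory bulb less cerebellum, was -0.37 with a 95% interval from -0.68 to -0.06 (adjusted p = 0.0552). It was called without whole brain replicate 4, striatum replicate 1 or striatum replicate 3 (-0.37 each) or without cerebellum replicate 2 (-0.45). Whole brain less olfactory bulb, 0.31 (adjusted p = 0.0635), was called without whole brain replicate 2 (0.38) or 3 (0.37) or striatum replicate 1 (0.31).

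The other Cspg4 probes lay nearer to equality. A_51_P160824 was called higher in whole brain (0.26) and olfactory bulb (0.21) and was not called in cortex (-0.04), striatum (-0.10) or cerebellum (-0.06), where all 3 regions overlapped. With median centring it was called higher in cortex (0.25, adjusted p = 0.021) and striatum (0.24, adjusted p = 0.0277). Its difference between olfactory bulb and striatum, 0.31 (adjusted p = 0.0316), became -0.09 in the sorted channel alone, and that between olfactory bulb and cerebellum, 0.26, became -0.21. Both were lost without olfactory bulb replicate 1 (0.28 and 0.23) or 2 (0.28 and 0.23), among other arrays. Its F test among regions was not called (adjusted p = 0.0537) and was called with the 12 regional arrays alone (adjusted p = 0.0376). A_52_P539873, the dimmest at 45.0 to 121 units in the reference, was called higher in whole brain (0.33), olfactory bulb (0.15, but -0.04 with median centring) and cerebellum (0.25), and not in cortex (0.11) or striatum (0.10). The olfactory bulb call was lost without 10 of the 16 arrays in turn, and cortex was called without cortex replicate 1 (0.19). No probe of the gene reached a 2-fold mean. Pericytes carry CSPG4 too. Across all genes, by 1 probe a gene, 31.2% to 34.5% were called lower in the 5 groups and 36.1% to 45.2% higher. Of 7 pericyte markers, 5 were called lower in each forebrain group and in whole brain and 4 in cerebellum, while 1 to 3 were called higher. The mean of the list per array ran from -0.92 to -0.58 over all 16 arrays, with Vtn at -3.40 in cortex and Rgs5 at -1.65 in cerebellum, and Kcnj8 was positive in the 4 regions, from 0.48 to 0.83. Their part in the Cspg4 values was not tested.

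Mbp, which encodes a major structural protein of compact myelin, had the most varied picture, since its 3 probes differed in level and in sign. The brightest, A_52_P329451, read -1.01, -1.02 and -1.24 for olfactory bulb, -1.16, -1.10 and -1.12 for cortex, -0.86, -1.0 and -0.79 for striatum and -0.22, -0.24 and -0.17 for cerebellum. Cerebellum stood clear of the other regions, olfactory bulb and cortex overlapped, and striatum lay just above both. Whole brain read 0.00, 0.07, 0.04 and -0.05, a mean of 0.01 that was not called (adjusted p = 0.808), though it was called higher with median centring (0.55) and with the scanner's own log ratio (0.25). The means were -1.09 ± 0.131 in olfactory bulb and -1.13 ± 0.028 in cortex, 2.13-fold and 2.18-fold below the reference (n = 3 each, adjusted p = 4.04e-12 and 2.72e-12). Cerebellum averaged -0.21 ± 0.036, 1.16-fold below it (n = 3, adjusted p = 0.00373), a direction that turned to 0.04 with median centring. The regions differed by the F test (adjusted p = 2.4e-07), with cerebellum highest: olfactory bulb, cortex and striatum less cerebellum were -0.88, -0.91 and -0.67, with adjusted p up to 8.95e-06. These 3 differences were called in the sorted channel alone too. The other 3 regional pairs were not called, with differences from -0.24 to 0.04.

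Probe A_52_P604195, whose array description is of a transcript overlapping the Mbp gene, gave a different order. Its mean was -1.08 in whole brain, -0.34 for olfactory bulb, -0.86 for cortex, -0.25 for striatum and -0.17 for cerebellum, all called lower, but with median centring olfactory bulb turned to 0.12, striatum to 0.09 and cerebellum to 0.07. The cerebellar call was lost without cerebellum replicate 2 (-0.11, adjusted p = 0.16). Cortex lay below every other region: olfactory bulb less cortex was 0.53, cortex less striatum -0.61 and cortex less cerebellum -0.69, with adjusted p of at most 0.000325. Probe A_51_P349205, like the brightest annotated to the Mbp transcript, read 1.08, 1.46, 1.5 and 1.68 in whole brain, 2.70-fold above the reference on average, and 0.66, 0.49 and 0.47 in cerebellum. It was called lower in olfactory bulb (-0.49) and cortex (-0.34), the former not without olfactory bulb replicate 2 (-0.29) and the latter not without cortex replicate 1 or 3 (-0.25 each), and not called in striatum (-0.13, adjusted p = 0.348). Olfactory bulb, cortex and striatum less cerebellum, with its mean of 0.54, were -1.03, -0.88 and -0.67, all called, as for the brightest probe. On whole-brain arrays, A_52_P604195 less A_51_P349205 was -2.51.

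Cnp, a phosphodiesterase of uncompacted myelin that appears early in the lineage, was lower in all 5 groups by its single probe, A_51_P232901. It read -1.14, -1.65 and -1.33 for olfactory bulb, -1.11, -1.35 and -1.35 for cortex, -1.02, -1.08 and -0.89 for striatum and -1.03, -1.26 and -0.96 for cerebellum. Whole brain read -1.42, -1.64, -1.71 and -1.56. The olfactory bulb, cortex and cerebellum overlapped, as did striatum and cerebellum, while striatum lay above all arrays of olfactory bulb and cortex. The means ran from -1.58 ± 0.125 in whole brain, 3.0-fold below the reference (n = 4, adjusted p = 9.79e-14), to -1.0 ± 0.099 in striatum, 2.0-fold below (n = 3, adjusted p = 4.43e-09). The F test among regions was just called (adjusted p = 0.0449) and was lost with the 12 regional arrays alone (adjusted p = 0.0505) and without 10 of the 16 arrays in turn. Its only called regional pair was olfactory bulb less striatum, -0.38 (95% interval -0.63 to -0.12, adjusted p = 0.0294), which was lost without olfactory bulb replicate 2 (-0.24) and without striatum replicate 1 (-0.39) or 3 (-0.32), and with median centring (-0.32, adjusted p = 0.0713). Olfactory bulb less cerebellum, -0.29 (adjusted p = 0.0662), was called without olfactory bulb replicate 1 (-0.41) or cerebellum replicate 2 (-0.38). It was also called with the replicate number as a block.

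Between dissected regions, the F test called 9 of the 14 probes, or 6 of the 7 genes by their brightest probe, against 55.9% of all probes. A range of at least 2-fold across region means was called for 3 of 14 probes, both Pdgfra probes and Mbp A_51_P349205, against 3.82% of all probes. Olfactory bulb and cortex, the lowest regions for most of the genes, differed at 2 of 14 probes, Pdgfra A_52_P264283 and Mbp A_52_P604195, against 15.7% of all probes. Cortex was lower than striatum at 6 probes and lower than cerebellum at 8, and higher at none (9.85% and 14.1% of all probes were lower, 7.61% and 12.4% higher). Olfactory bulb was lower than striatum at 6 and than cerebellum at 7, and higher at 1 each (12.8% and 20.7% of all probes were lower, 13.2% and 19.2% higher). Striatum and cerebellum differed at 4, 3 of them lower in striatum (19.5% of all probes) and Olig2 A_52_P223626 higher (17.7%). Pairs that share a region share its arrays. By brightest probe, the order of the means was olfactory bulb, cortex, striatum, cerebellum for Pdgfra, olfactory bulb, cortex, cerebellum, striatum for Olig1, Olig2 and Cnp, cortex, olfactory bulb, cerebellum, striatum for Sox10 and cortex, olfactory bulb, striatum, cerebellum for Mbp. For Cspg4 it was olfactory bulb, striatum, cortex, cerebellum, with no neighbours called apart. Neighbours were called apart throughout for Pdgfra, between cortex and cerebellum and between cerebellum and striatum for Olig2, between cortex and cerebellum for Olig1, between olfactory bulb and cerebellum for Sox10, between striatum and cerebellum for Mbp and nowhere for Cnp.

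**Figure D3:**
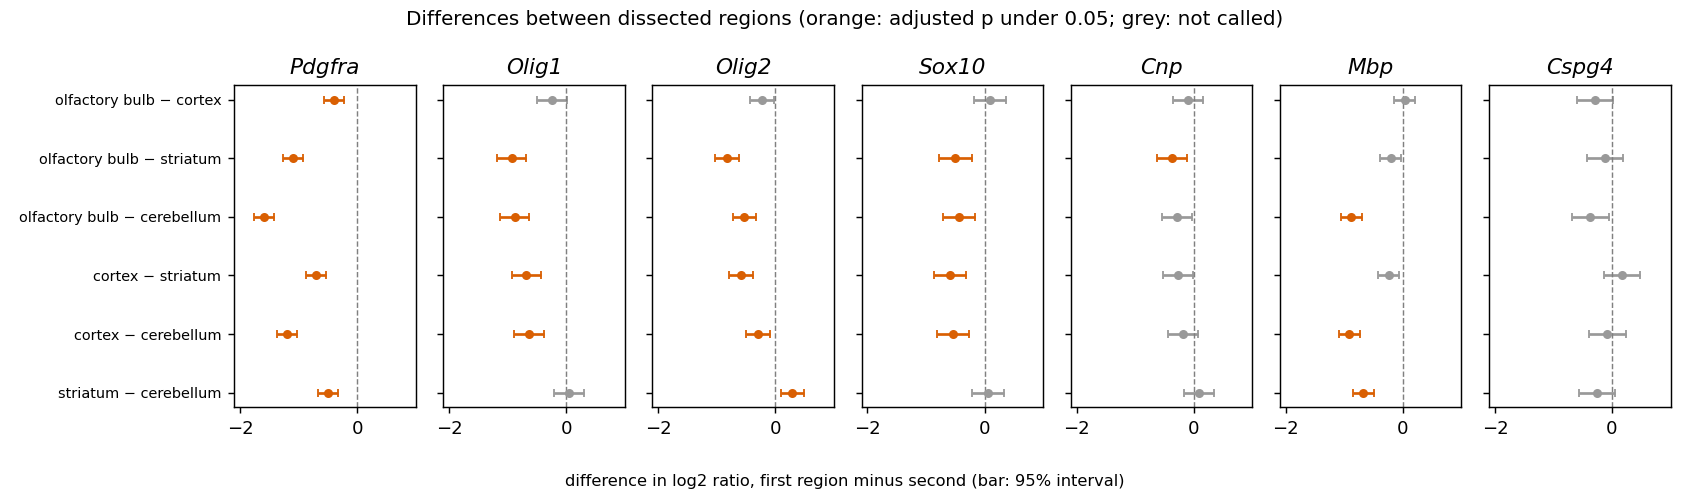
Difference in log2 ratio between 2 dissected regions (x axis, first minus second) for each of 6 pairs (y axis), for the brightest probe of each gene; points are differences of 3-array means and bars are 95% intervals. Pdgfra has all 6 pairs called and Cspg4 none. Cortex is called lower than striatum at 4 of 7 genes and than cerebellum at 5, against 9.85% and 14.1% of all probes. The Olig2 difference between striatum and cerebellum turns to -0.0025 with scale normalization.

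Whole brain was called apart from olfactory bulb at 8 of the 14 probes, from cortex at 10, from striatum at 11 and from cerebellum at 12, beside 58.3%, 54.6%, 58.1% and 54.9% of all probes. Olig1 was higher in whole brain than in each region, by 0.43 to 1.36. Sox10 A_51_P346704 was too, by 0.73 to 1.33, while the other Sox10 probe was lower there, with differences from -1.07 to -0.78, and the mean of both probes gave -0.03 against striatum and -0.02 against cerebellum. The brightest Mbp probe was higher in whole brain by 1.1 over olfactory bulb, 1.14 over cortex, 0.90 over striatum and 0.23 over cerebellum, the last lost without whole brain replicate 2 (0.21) or cerebellum replicate 1 (0.22) or 2 (0.21). Mbp A_51_P349205 was also highest in whole brain, at 1.43 against -0.49 to 0.54 in the regions. Mbp A_52_P604195 went the other way, at -1.08 in whole brain against -0.86 to -0.17. For that probe, whole brain less cortex turned to 0.055 with scale normalization. Whole brain less olfactory bulb and cortex was 1.17 and 0.78 for the brightest Pdgfra probe, and whole brain less cerebellum was -0.41, which with median centring was -0.063 and not called (adjusted p = 0.663), nor in the sorted channel alone (-0.25, adjusted p = 0.143). Whole brain was not called apart from striatum (0.08, 95% interval -0.08 to 0.25), but was with median centring (0.28), with scale normalization (0.56) and, in the other direction, as the mean of both probes (-0.63). By the second Pdgfra probe, whole brain was not called apart from olfactory bulb (0.03) or cortex (-0.03, but 0.41 and called with scale normalization). Less striatum and cerebellum it was -1.35 and -1.19 by that probe, both called. For Cnp, whole brain less cortex, striatum and cerebellum was -0.32, -0.59 and -0.50, of which the first turned to 0.09 with scale normalization and the second fell to -0.10 and lost its call there (adjusted p = 0.40). The first was also lost with median centring (-0.27, adjusted p = 0.0623) and without whole brain replicate 2 (-0.30) or 3 (-0.27) or cortex replicate 1 (-0.24). These differences coincide with the scan session and with the low Gad1 ratio of the whole-brain arrays, whose part in them was not tested.

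The genes whose regional pattern was most like that of a member were found by Pearson's r of log2 ratios over the 12 regional arrays, among 18201 genes. Each member and each other gene stood by its brightest probe alone. With 4 regions of 3 arrays, which share the reference, r mostly follows region means, and it is given as a description. For Pdgfra they were Sst (0.985), the neuropeptide somatostatin, Ier2 (0.982) and Efna5 (0.981). Sst itself was far below the reference, with means of -4.26 for olfactory bulb, -3.37 for cortex, -2.14 for striatum and -1.37 for cerebellum. For Olig1 they were Gsx1 (0.964), S100a13 (0.962) and Melk (0.954), for Olig2 Rnase4 (0.972), Kctd13 (0.971) and Copz1 (0.967), and for Sox10 Spc24 (0.943), Psmb5 (0.940) and B4galnt1 (0.931). Melk and Spc24 are genes of dividing cells. For Mbp they were Nelfa (0.989), Erich2 (0.984) and Ptprk (0.983), and for Cnp Anxa5 (0.917), Cmtm2a (0.912) and Tpst1 (0.905). Likeness is of pattern and not of level: Nelfa lay between 0.55 and 1.57 in the regions, where the brightest Mbp probe lay between -1.13 and -0.21. Among the members, the highest r was 0.939 between Olig1 and Olig2 and the lowest 0.178 between Olig2 and Cspg4.

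Further genes of the lineage did not share the low ratios of the members as a group. Of 27 listed, 25 were tested by their brightest probe, and in whole brain 12 were called higher and 10 lower. The counts of higher and lower were 9 and 7 for olfactory bulb, 10 and 7 for cortex, 8 and 10 for striatum and 12 and 6 for cerebellum, with medians from -0.03 to 0.18. By 1 probe a gene, 34.5%, 31.2%, 31.5%, 31.4% and 33.2% of all genes were called lower in these groups in the same order, and 45.2%, 36.6%, 37.9%, 36.1% and 42.8% higher. Of the 25 genes, 17 were called among regions by the F test, where 55.9% of all probes were. Precursor genes were found on both sides: Lhfpl3, a transmembrane protein gene, was lower in all 5 groups, from -1.52 in whole brain to -2.44 in olfactory bulb. Nkx2-2, a homeobox factor of oligodendrocyte differentiation, was lower in whole brain (-0.69), olfactory bulb (-1.25), cortex (-1.23) and striatum (-0.96) and not called in cerebellum (0.18). Vcan, encoding the matrix proteoglycan versican, was higher, at 2.14 in whole brain, 1.77 in olfactory bulb and 0.73 to 0.74 in the other regions, though 2 of its 5 probes were below 0 in whole brain.

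The genes named from this list were mostly taken for the size of their means, so their directions do not describe the list. Ugt8a and Fa2h, enzymes of galactolipid synthesis, were called higher in all 5 groups, at 0.68 to 1.29 and 0.37 to 1.43, although 2 of the 3 Ugt8a probes were below 0 in olfactory bulb, cortex and cerebellum. Gal3st1, the sulfotransferase that makes sulfatide, was higher in the 4 regions (1.14 to 1.72) and not called in whole brain (-0.09, or 0.45 with median centring). Mobp was higher in all groups (0.88 to 1.18), with 1 of its 3 probes below 0 in all but cerebellum. Mog, a late myelin surface protein, was higher by its brightest probe, from 0.87 in olfactory bulb to 2.52 in cerebellum, but its other probes went the other way, and the mean of its 3 probes was -0.22 in whole brain, -0.29 in olfactory bulb, -0.04 in cortex and -0.06 in striatum. Of the ligands of PDGFRA, Pdgfa was higher in all 5 groups, at 0.72 in whole brain, 0.79 for olfactory bulb, 0.58 for cortex, 0.39 for striatum and 0.98 for cerebellum. Pdgfc was called only in whole brain (0.29, but -0.09 as the mean of its 2 probes) and lay between -0.11 and 0.08 in the regions.

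**Figure D4:**
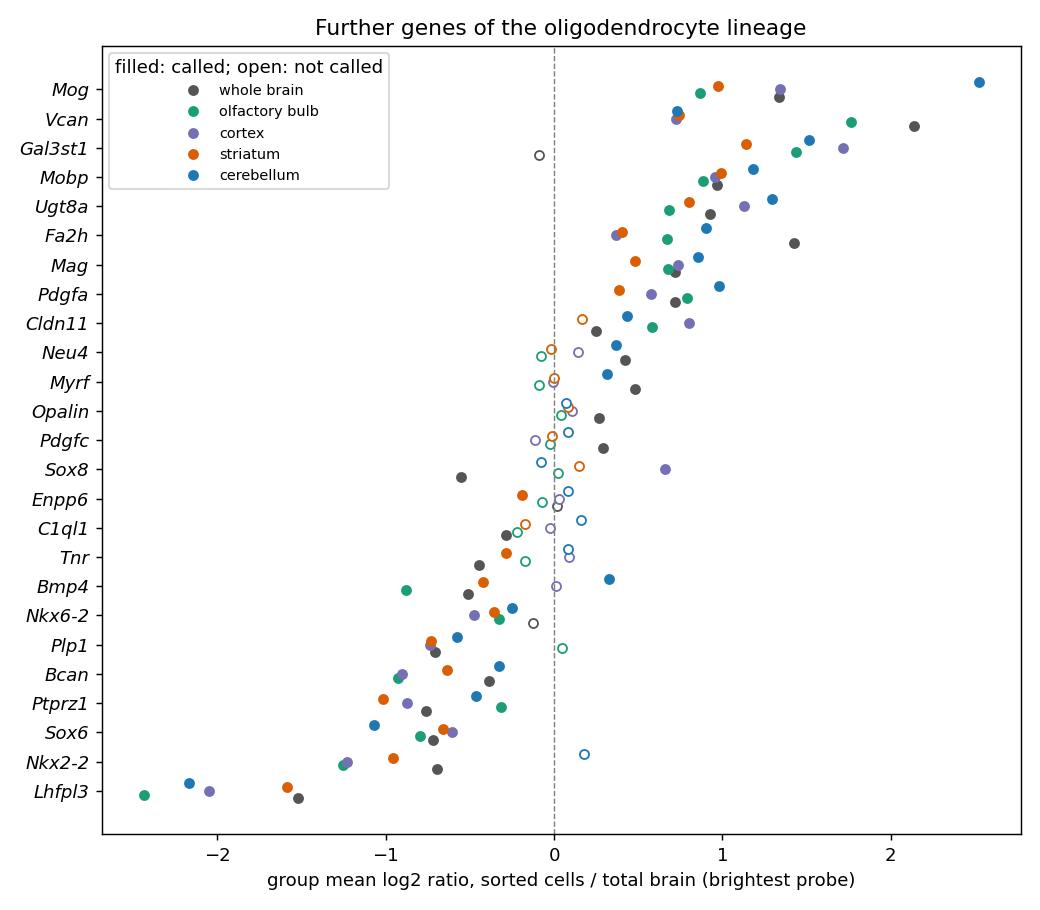
Group mean log2 ratio over the reference (x axis) of 25 further lineage genes by their brightest probe (y axis, ordered by the mean over groups); filled points are called and open points are not. Lhfpl3 has the lowest mean, at -2.44 in olfactory bulb, and Mog in cerebellum the highest, at 2.52, although the mean of all Mog probes is below 0 in the other 4 groups.

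Markers of other cells that the dissociated tissue could hold are given beside the members. Across all genes, by 1 probe a gene, 31.2% to 34.5% were called lower in the 5 groups and 36.1% to 45.2% higher. Of 10 astrocyte markers, 9 were called lower in each region and 8 in whole brain, and 1 was called higher in every group. Gja1 ran from -4.45 to -2.31 and Aldoc from -3.29 to -2.34. Of 7 endothelial markers, 5 or 6 were lower in every group, while 2 were higher in whole brain and 1 in each region. Cdh5 ran from -2.09 to -1.68 and Cldn5 from -2.38 to -0.64. Microglial markers were mixed, with 3 to 6 of 7 lower. Higher were 3 in whole brain, 0 in olfactory bulb and 2 in each of cortex, striatum and cerebellum. Tyrobp and Csf1r were -1.67 and -1.65 in olfactory bulb and -1.24 and -1.42 in cortex. They were nearer to 0 in striatum and cerebellum (-0.57 to -0.30, with Tyrobp in striatum at 0.04 with median centring). Of 8 genes of dividing cells, 7 were higher and none lower in striatum, 4 and 0 in cerebellum, 1 and 5 in olfactory bulb and 1 and 4 in cortex. The 4 of 8 higher in cerebellum were near the 42.8% of all genes called higher there. The mean of the 8 genes per array ran from 0.43 to 0.53 in striatum and 0.25 to 0.56 in cerebellum. It ran from -0.30 to -0.10 in olfactory bulb and -0.11 to -0.04 in cortex. Birc5 was 1.21 in striatum and -0.14 in olfactory bulb, or 0.31 there with median centring, and Mki67 was 0.72 to 0.80 in all 4 regions. The part of dividing cells in the regional differences was not tested.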

How the data were processed

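Each of 16 arrays held cDNA of sorted GAD67-eGFP cells (Cy5) and of a total brain reference (Cy3), 250 ng of each, amplified alike, per the labels' protocols; dyes were not swapped, and direction rests on the dye names, since the Cy3 label also says red. The deposited files hold mean spot intensity and local background intensity, quantified by Agilent Feature Extraction 8.1.1.1 per the submitters' processing notes. They also hold the software's log10 ratio per the file headers. The deposited value table equals it within 0.005 for 43789 features, with column medians from 0 to 0.0334. The table thus has the scale and sign of the software's ratio and was not centred further. Which dye holds the sorted cells rests on the labels.

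Ratios on the log2 scale came from limma 3.58.1 under R 4.3.3 (data.table in version 1.17.8, Python 3.11.15, pandas 2.3.3, matplotlib 3.10.9). Background was corrected by normexp with offset 50, which shrinks dim ratios towards 0, and ratios were loess-normalized within arrays, with controls and flagged spots at weight 0. Spots of a probe were averaged (1 spot on a short line was left out). The filter kept a probe if at least 3 arrays showed it well above background in Cy5, or at least 8 in Cy3, which 39226 of 41173 did. RefSeq names were assigned through the accession (21444 probes), the symbol (5431) or a synonym (4636), and 9662 probes kept the array's name. Group means of the 5 groups were fitted with lmFit and eBayes over all 16 arrays, with Benjamini-Hochberg adjustment over all probes and calls under 0.05: each group against 0, a moderated F test among 4 regions, and 10 pairs. A gene is called by its brightest probe, chosen by mean signal over all arrays, and all its probes are given. The procedure was tested on simulated data. Array number limits the precision, and p-values measure only the spread between these samples.

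Alternatives were median centring, scale normalization between arrays, the scanner log ratio, no background subtraction, other filters, the mean of a gene's probes, each group or the regional arrays alone, the replicate number as a block, the sorted-cell channel alone (after loess and Aquantile) and leaving out each array. The rule named all 7 genes; from the further lineage list, up to 8 genes with the largest group means among those called by at least 2-fold, plus Pdgfa and Pdgfc; from other lists, the 2 genes with the largest ratios; and the 3 genes most like each member called among regions. Dlx2, Gad1 and Kcnj8 were named after their values were seen. The members and lists were chosen with earlier results of these data known.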

Additional observations from a re-analysis of the deposited data

Results flagged for a closer look

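Sox10 A_51_P346704 had 1 whole-brain array far from the others: replicate 4 read -0.28 while the others read -0.77, -0.75 and -0.73, a gap of 0.919 of the group's range. It was the only far array among 14 probes tested in the 4 whole-brain arrays, and chance flags about 1 in 20 such groups. The regional difference itself was called by the moderated F test for 9 probes, with a range of region means of 1.59 and 1.37 for the Pdgfra probes A_52_P264283 and A_51_P345649, 0.93 for Olig1, 0.82 for Olig2 A_52_P223626, 0.59 for Sox10 A_51_P346704, 0.91, 0.69 and 1.03 for the Mbp probes A_52_P329451, A_52_P604195 and A_51_P349205, and 0.38 for Cnp.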

How the results depend on the processing

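Against the reference, 496 of 515 member values were kept under other settings, and 1094 of 1120 with 1 array left out. For pairs, 988 of 1114 and 2170 of 2240 values were kept. For the regional F tests, 118 of 131 and 207 of 224 were kept. Kept means the same side of the threshold, and the same direction wherever either value was called. A change of sign where neither value was called was counted as kept and is not listed below. Signal over background limits the dim probes. The cause of the changes below was not tested. The scanner log ratio moved the median of all probes in whole brain from 0.04 to 0.15.

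With median centring, values turned sign against the reference for Gal3st1 (0.45), Tyrobp (0.048) and Csf1r (0.38) in whole brain; Cspg4 A_52_P539873 (-0.041), Mbp A_52_P604195 (0.12) and Birc5 (0.31) in olfactory bulb; Cspg4 A_51_P160824 (0.25) and Nkx2-1 (0.29) in cortex; Pdgfra A_51_P345649 (0.074), Cspg4 A_51_P160824 (0.24), Mbp A_52_P604195 (0.087) and Tyrobp (0.037) in striatum; and Mbp A_52_P329451 (0.038) and A_52_P604195 (0.071) in cerebellum. Whole brain less cerebellum turned for Olig2 A_52_P223626 (0.055) and Cspg4 A_52_P278064 (0.38). With scale normalization, whole brain less cortex turned for Pdgfra A_51_P345649 (0.41), Mbp A_52_P604195 (0.055) and Cnp (0.087), and striatum less cerebellum for Olig1 (-0.44) and Olig2 A_52_P223626 (-0.0025). With the mean of a gene's probes, Mog turned in whole brain (-0.22), olfactory bulb (-0.29), cortex (-0.041) and striatum (-0.056), Pdgfc in whole brain (-0.088) and Mbp in cerebellum (0.051). So did whole brain less striatum for Pdgfra (-0.63) and Sox10 (-0.027), and whole brain less cerebellum for Olig2 (0.076) and Sox10 (-0.024). In the sorted channel alone, olfactory bulb less striatum (-0.094) and less cerebellum (-0.21) turned for Cspg4 A_51_P160824.

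Members called higher in whole brain went from 1 to 2 with median centring, the scanner log ratio and the mean of probes. For olfactory bulb less cortex, members called went from 1 to 0 with median centring, the mean of probes and the sorted channel, and to 2 with the scanner log ratio. Olfactory bulb less striatum went from 5 to 3 with median centring, and olfactory bulb less cerebellum from 5 to 3 with median centring, the mean of probes and the sorted channel. With the mean of probes, whole brain less cerebellum went from 6 to 3, cortex less cerebellum from 5 to 3 and striatum less cerebellum from 3 to 1. There, with fewer features tested, calls over all features went from 6142 to 3914 for olfactory bulb less cortex, 10207 to 6742 for olfactory bulb less striatum, 6849 to 4388 for cortex less striatum and 10402 to 6907 for cortex less cerebellum. In the sorted channel, calls went from 6142 to 9303 for olfactory bulb less cortex and from 14604 to 8678 for striatum less cerebellum.

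Leaving out 1 array gave 0 to 1 members called higher in olfactory bulb and in striatum, 1 to 2 between olfactory bulb and cortex and 2 to 3 between striatum and cerebellum. Over all probes, calls ran from 3672 to 7025 between olfactory bulb and cortex, 6985 to 11289 between olfactory bulb and striatum and 3566 to 7993 between cortex and striatum.

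Whether equal replicate numbers pair the regional arrays was not settled: 18 same-number pairs correlated at -0.119 to 0.247, 5 of them over 0.1, and 8 of 12 arrays correlated best with their own number, a hint from the data and not from the design. With the replicate number as a block, the F test called 23274 probes instead of 21920 and 6 of 7 members as before, and members called between olfactory bulb and cerebellum went from 5 to 7, with Cspg4 (-0.37, adjusted p = 0.0391) and Cnp (-0.29, adjusted p = 0.031) added. No call of a member was lost under the block.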
